A study of Mus musculus with 8 samples.

Results

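The guanylate-binding proteins (GBPs) are a family of large GTPases encoded in the mouse by clusters of genes on chromosomes 3 and 5. The 10 members described here, *Gbp2*, *Gbp2b*, *Gbp3*, *Gbp4*, *Gbp5*, *Gbp6*, *Gbp7*, *Gbp8*, *Gbp9* and *Gbp10*, were found by gene identifier among the 48795 genes quantified in peritoneal macrophages (pMacs), and 9 of them were among the 13040 genes with enough counts for a test. The family was chosen by its response in the comparison of WT with CD1d-KO pMacs, in which *Gbp4* had stood out, so the differences between genotypes given for its members are a description and carry no test.

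RNA was sequenced from pMacs of 4 WT mice, described as littermate controls, and 4 CD1d-KO mice, 1 library per mouse, with no stimulus named. The study lists its WT mice as C57BL/6, and elsewhere names littermates and WT C57BL/6 mice as separate kinds of control. The mice of the study were adult and matched for age and sex. CD1d is the molecule that presents lipid antigens to NKT cells, and mice without it also lack NKT cells, so a CD1d-KO pMac differs from a WT pMac in its own CD1d and in the host it came from. The study kept 2 kinds of CD1d-KO mice. They were the line B6.129S6-Del(3Cd1d2-Cd1d1)1Sbp/J, which lacks *Cd1d1* and *Cd1d2*, and CD1d flox mice crossed with PGK-Cre, a Cre active in all tissues. The sources used here give no background strain for the flox mice and do not say which of the 2 kinds gave the libraries. Both genotypes have libraries numbered 1, 2, 3 and 5, and a pair below is the WT and the CD1d-KO library of the same number.

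GBPs are among the genes most strongly induced in macrophages by interferon-γ (IFN-γ), which acts through its receptor and the kinases JAK1 and JAK2, and many of them also respond to type I interferons. Promoters of interferon-induced genes often hold a gamma-activated site (GAS) or an interferon-stimulated response element (ISRE), which IRF1 can bind. The proteins assemble on the vacuoles of intracellular pathogens and on the surface of bacteria in the cytosol, where they help to open the vacuole and bring lipopolysaccharide to caspase-11, which is encoded by *Casp4*.

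The libraries held between 13698864 and 19059432 expected counts on genes (median 14436660). The deepest were WT replicate 1, with 19059432, and CD1d-KO replicate 1, with 1.86e+07, and the others had at most 1.474e+07. Levels within a gene are given below as normalized counts (expected counts scaled by the TMM factors of edgeR to the mean library size), and levels between genes as TPM, which corrects for transcript length. *Cd1d1* had between 67.7 and 173.9 normalized counts in the WT libraries and at most 1.14 in CD1d-KO replicates 2, 3 and 5, but 60.2 in the library labelled CD1d-KO replicate 1. This *Cd1d1* count goes against the label, so the fold changes between genotypes are given with all 4 pairs and again without pair 1. The single gene *S100a8*, from the list of neutrophil markers, went with the label, at 83.6 normalized counts. It was between 44.2 and 51.2 in WT and between 80.5 and 89.5 in the other CD1d-KO libraries. *S100a9*, *Ly6g* and *Retnlg* of the same list had at most 3 counts in every library. How near *S100a8* lies to *Cd1d1* in the genome was not examined. Whether a mouse or a tube was mislabelled was not tested. The normalized counts of the 10 markers of large peritoneal macrophages, among them *Adgre1*, *Lyz2* and *Gata6*, were summed per library. The sum was between 378908 and 440601 in WT and between 325273 and 395132 in CD1d-KO libraries, and 0 of the 10 were near the floor of 3 counts. Most of that sum was *Lyz2*, at 252673 to 290780 in WT and 199721 to 267900 in CD1d-KO, so it says little of the other markers. *Gata6* was between 344.8 (replicate 3) and 773.9 (replicate 1) in WT and between 455 and 774 in CD1d-KO.

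The members lie in 2 clusters of GRCm38. On the plus strand of chromosome 3 lie *Gbp5* (ENSMUSG00000105504) from 142493978 to 142522344, *Gbp7* (ENSMUSG00000040253) from 142530342 to 142550149, *Gbp3* (ENSMUSG00000028268) from 142560026 to 142573209, *Gbp2b* (ENSMUSG00000040264) from 142594847 to 142619179 and *Gbp2* (ENSMUSG00000028270) from 142620602 to 142638008, between 55.5 and 55.6 Mb from *Cd1d1* on the same chromosome. On the minus strand of chromosome 5 lie *Gbp8* (ENSMUSG00000034438) from 105014150 to 105139540, *Gbp9* (ENSMUSG00000029298) from 105077630 to 105139539, *Gbp4* (ENSMUSG00000079363) from 105115767 to 105139586, *Gbp10* (ENSMUSG00000105096) from 105215699 to 105239533 and *Gbp6* (ENSMUSG00000104713) from 105270702 to 105293698. There the annotated spans of *Gbp8*, *Gbp9* and *Gbp4* overlap, and the gene model *Gm43302* overlaps both *Gbp10* and *Gbp6*, from 105214907 to 105293695.

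The promoters of the chromosome 3 members are printed because the family is known for its response to interferon, and the letters of the interferon elements can be read in them. The set of RefSeq promoters used here (GRCm38.p6) held a start for these 5 members. It held no entry for *Gbp4*, *Gbp6*, *Gbp8*, *Gbp9* and *Gbp10*, which does not mean that RefSeq lacks them. Each window holds the 250 bases before the start, 5′ to 3′ on the strand of the gene, and those of *Gbp5*, *Gbp3* and *Gbp2* reach into the longer gene spans of GENCODE given above. Capitals mark every match to TTCNNNGAA (the GAS) or to GAAANNGAA (the core of the ISRE) on either strand, and adjoining capitals in *Gbp3* are 2 overlapping ISRE cores.
Gbp5 (chr3:142496684-142496933, + strand): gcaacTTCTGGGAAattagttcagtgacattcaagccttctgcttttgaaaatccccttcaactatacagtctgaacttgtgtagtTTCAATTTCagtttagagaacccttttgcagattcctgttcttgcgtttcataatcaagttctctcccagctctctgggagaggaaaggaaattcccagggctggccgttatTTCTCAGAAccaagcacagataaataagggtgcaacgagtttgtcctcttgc
Gbp7 (chr3:142530086-142530335, + strand): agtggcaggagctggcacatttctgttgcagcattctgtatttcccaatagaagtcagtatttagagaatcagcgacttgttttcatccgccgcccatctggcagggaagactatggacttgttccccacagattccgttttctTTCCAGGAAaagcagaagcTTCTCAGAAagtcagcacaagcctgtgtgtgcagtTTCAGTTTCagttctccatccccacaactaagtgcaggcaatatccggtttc
Gbp3 (chr3:142559794-142560043, + strand): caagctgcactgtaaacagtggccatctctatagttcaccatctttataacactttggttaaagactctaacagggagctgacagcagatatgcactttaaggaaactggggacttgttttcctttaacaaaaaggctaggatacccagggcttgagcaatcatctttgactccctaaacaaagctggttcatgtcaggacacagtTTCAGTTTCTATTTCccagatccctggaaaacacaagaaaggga
Gbp2b (chr3:142594597-142594846, + strand): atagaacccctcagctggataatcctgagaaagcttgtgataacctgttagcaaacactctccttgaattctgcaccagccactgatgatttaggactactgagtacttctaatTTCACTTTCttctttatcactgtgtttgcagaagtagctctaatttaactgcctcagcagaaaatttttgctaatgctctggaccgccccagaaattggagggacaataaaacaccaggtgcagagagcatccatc
Gbp2 (chr3:142620413-142620662, + strand): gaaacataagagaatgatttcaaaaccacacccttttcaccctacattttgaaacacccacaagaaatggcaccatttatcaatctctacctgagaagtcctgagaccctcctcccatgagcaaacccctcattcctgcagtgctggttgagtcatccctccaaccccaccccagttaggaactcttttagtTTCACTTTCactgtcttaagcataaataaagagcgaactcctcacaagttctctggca

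All 5 windows held an ISRE core, which was found in 7.13% of the 32851 promoter windows of the same length. Counted from the start, with -1 as the last base before it, the element began at -58 in *Gbp2*, at -136 in *Gbp2b*, at -52 in *Gbp7* and at -164 in *Gbp5*, and the 2 overlapping cores of *Gbp3* began at -44 and -38. *Gbp5* and *Gbp7* each held 2 GAS matches as well, at -245 and -52 in *Gbp5* and at -106 and -87 in *Gbp7*, and the letters TTCTCAGAA stood in both. A GAS match was found in 7.02% of all windows and both elements together in 0.752%. A further RefSeq start of *Gbp3*, at the end of the window chr3:142560106-142560355, had 0 matches to either motif. A match is a run of letters and was not tested for binding.

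The longest protein of each member, translated from the GENCODE M21 coding sequences, ranged in length from 525 residues (*Gbp8*) to 638 (*Gbp7*). *Gbp6* and *Gbp10* were the closest pair, identical at 97.7% of 611 aligned residues, and *Gbp8* and *Gbp10* came next at 88% of 515. On chromosome 3 the closest pair was *Gbp2* and *Gbp2b* (76.2%), followed by *Gbp3* and *Gbp7* (73.1%). *Gbp4* and *Gbp5*, one from each cluster, were the most distant (43.4%). A cysteine as the 4th residue from the end, the position that is prenylated in a CaaX box and anchors a protein in membranes, was present in *Gbp2*, *Gbp2b* and *Gbp5* and in no other member.

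These similarities bear on how well a read of 75 bases can be given to 1 member. Of the stretches of 75 bases in the *Gbp10* transcripts 77.8% also occurred in another gene, and of those in *Gbp6* 67.3%. For *Gbp6* the genes concerned were *Gm43302*, with 61.7% of its stretches, and *Gbp10*, with 40.4%. *Gbp7* shared 11.3% of its stretches, 10% with the processed pseudogene *Gm43802*, and *Gbp8* shared 8.04%. The other 6 members shared between 0.578% (*Gbp5*) and 3.61% (*Gbp9*). The counts of *Gbp6* and *Gbp10* are therefore uncertain as a division between them. Their sum with *Gm43302* is given for the fold change, while the levels of single members and the correlations use each gene on its own.

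**Figure D1:**
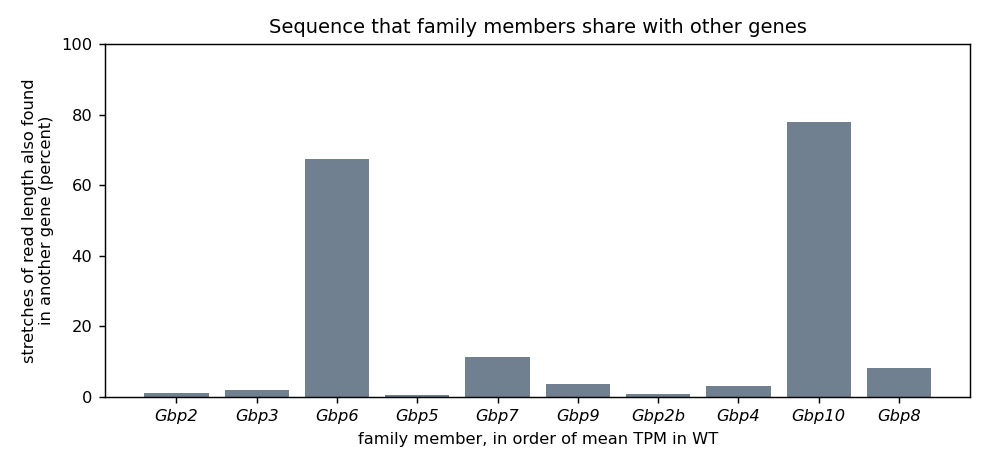
Percent of the 75-base stretches in the transcripts of each member (x axis, in order of WT level) that also occur in the transcripts of another gene (y axis, percent, 1 bar per gene). Bars stand at 77.8% for *Gbp10* and 67.3% for *Gbp6*, and at 11.3% or less for the other 8 members.

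In WT pMacs the family was dominated by *Gbp2*. It encodes a prenylated GBP that is recruited to bacterial and parasite vacuoles, and its TPM in WT replicates 1, 2, 3 and 5 was 119.5, 330.4, 500.2 and 391.5 (mean 335 ± 160, SD, n = 4). *Gbp2* alone made up 47.8% of the summed mean TPM of the 10 members. *Gbp3* followed at 124 ± 63.8 TPM, *Gbp6* at 89.1 ± 69.6, *Gbp5* at 68.0 ± 50.6, *Gbp7* at 41.4 ± 23.5 and *Gbp9* at 29.4 ± 23.8 (SD, n = 4 each). The lowest members were *Gbp2b* at 6.69 ± 3.18 TPM, *Gbp4* at 5.07 ± 3.86, *Gbp10* at 1.67 ± 1.61 and *Gbp8* at 0.275 ± 0.203 (SD, n = 4 each). The WT ranges of every pair of neighbours in this order overlapped. Within single WT libraries *Gbp2* was above *Gbp3*, *Gbp3* above *Gbp6*, *Gbp5* above *Gbp7*, *Gbp7* above *Gbp9*, *Gbp4* above *Gbp10* and *Gbp10* above *Gbp8* in 4 of 4, and the other neighbours kept their order in 3 of 4. FPKM gave the same order of means.

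In CD1d-KO pMacs the order of the mean TPM was the same but for *Gbp4* and *Gbp2b*, which changed places. *Gbp4* stood at 15.3 ± 14.0 TPM and *Gbp2b* at 12.1 ± 6.65 (SD, n = 4 each), and *Gbp4* was above *Gbp2b* in 3 of 4 CD1d-KO libraries. Over CD1d-KO replicates 2, 3 and 5 alone, *Gbp4* was at 19.3 ± 14.1 and *Gbp2b* at 12.4 ± 8.11 TPM (SD, n = 3 each). *Gbp2* stayed the highest member, at 513 ± 234 TPM (SD, n = 4) and 46% of the family, and at 589 ± 218 TPM without replicate 1 (SD, n = 3). *Gbp7* and *Gbp9*, at 56.7 and 55.6 TPM, or 66.1 and 67.6 without replicate 1, could not be ordered.

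The TPM of all 10 members together was 212.2, 687.7, 1167 and 737.6 in WT replicates 1, 2, 3 and 5. In CD1d-KO replicates 1, 2, 3 and 5 it was 568.9, 726.3, 1659 and 1504. The sum was higher in the CD1d-KO library by 2.68-fold in pair 1, 1.06-fold in pair 2, 1.42-fold in pair 3 and 2.04-fold in pair 5, and the genotypes overlapped, since WT replicate 3 lay above CD1d-KO replicates 1 and 2. The chromosome 3 members carried between 76.7% of this sum, in CD1d-KO replicate 3, and 91.7%, in WT replicate 1, which were the libraries with the highest and the lowest sum.

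**Figure D2:**
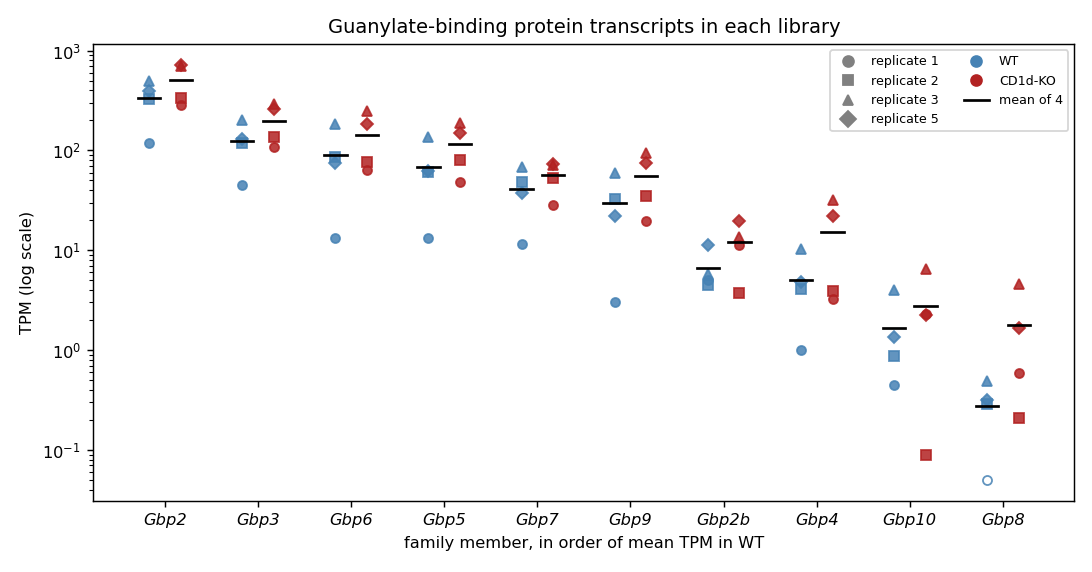
TPM of each member (y axis, log scale) in the 4 WT (blue) and 4 CD1d-KO libraries (red), members in order of their mean WT level, with black lines at the mean of 4 and marker shapes for the replicate number. *Gbp2* lies between 119.5 and 720.8 TPM and *Gbp8* at or below 4.62, and WT replicate 1 is the lowest WT library for all members but *Gbp2b*. The open circle of *Gbp8* is a value of 0 drawn at the lower edge.

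The levels differed widely among mice of the same genotype. The SD of the log2 CPM over the 4 WT libraries was between 0.62 (*Gbp2b*) and 1.85 (*Gbp9*) for the 9 tested members, against a median of 0.19 for the 8610 genes with a mean of at least 100 counts. For *Gbp9* the highest WT library held 19.5 times the normalized count of the lowest, for *Gbp6* 16.9 times, for *Gbp4* 15.3 times and for *Gbp5* 12.5 times. *Gbp2* and *Gbp3* ranged over 5.08-fold and 5.45-fold and *Gbp2b* over 2.61-fold. WT replicate 1 was the lowest WT library for each of the 9 tested members, and WT replicate 3 the highest for all of them but *Gbp2b*.

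Members moved together from library to library. Over the 8 libraries, which share 1 normalization, the log2 CPM of *Gbp2*, *Gbp3*, *Gbp4*, *Gbp5*, *Gbp6*, *Gbp7* and *Gbp9* gave Pearson's r between 0.875 and 0.993 in their 21 pairings (Spearman's rho between 0.881 and 1). Without WT replicate 1 and CD1d-KO replicate 3, the libraries farthest from the median, r was between 0.655 and 0.985. *Gbp2b* went its own way, with r between 0.363 and 0.801 against the other members, and between -0.21 and 0.702 without those libraries. *Gbp10*, which has few counts and shares most of its sequence with other genes, gave r between 0.566 and 0.833, and between 0.23 and 0.724 without those libraries. These correlations are descriptions over 8 libraries of 2 genotypes and have no p-value.

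**Figure D3:**
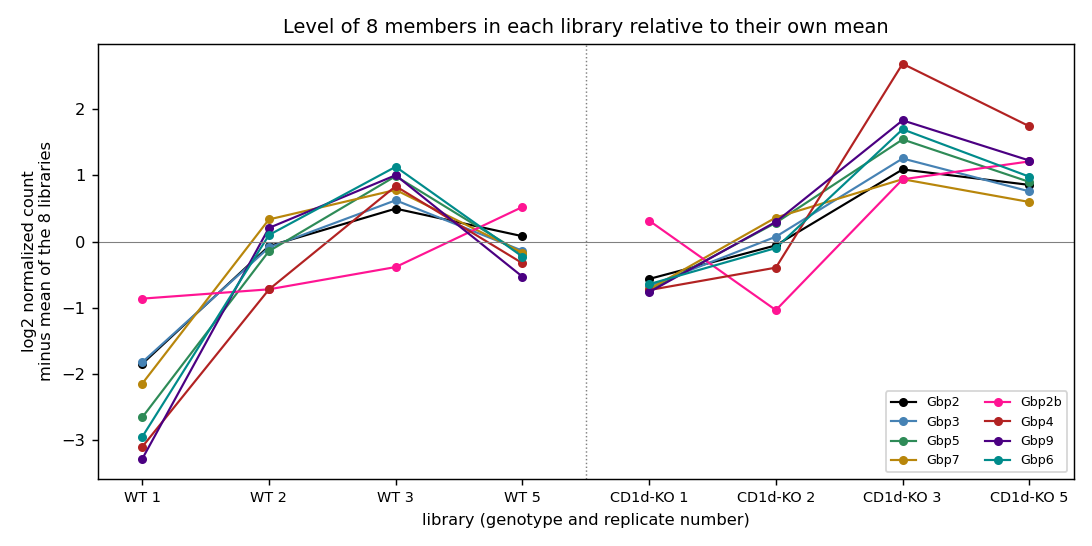
Log2 normalized count of 8 members minus their own mean over the 8 libraries (y axis, log2) in each WT (left) and CD1d-KO library (right), with lines that join the values of 1 gene within a genotype to make it easier to follow and that stand for no order. *Gbp2*, *Gbp3*, *Gbp4*, *Gbp5*, *Gbp6*, *Gbp7* and *Gbp9* are lowest in WT replicate 1 and highest in CD1d-KO replicate 3, and *Gbp2b* departs from them.

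Between the genotypes, all 9 tested members had a higher fitted level in CD1d-KO pMacs, with log2 fold changes from 0.58 (*Gbp7*) to 1.65 (*Gbp4*). Their median was 0.77, against 0.0047 over all tested genes. The groups overlapped for 10 of the 10 members. The share of all tested genes whose groups overlap was not counted, so nothing more is read from this. Because the RNA is from bulk pMacs, fewer cells that express a gene and less RNA of it per cell cannot be told apart.

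*Gbp4* had the largest of these differences. Its protein has been described as a partner of the transcription factor IRF7, and its normalized count was 21.6, 112.1, 330.5 and 147.6 in WT replicates 1, 2, 3 and 5 and 111.4, 140.9, 1191 and 618.9 in CD1d-KO replicates 1, 2, 3 and 5. CD1d-KO replicates 3 and 5 lay above every WT library, and CD1d-KO replicates 1 and 2 lay within the WT range. The log2 fold change was 1.65 (SE 0.28), 1.52 without replicate 1 and 2.03 without replicate 2. In TPM, which also takes up which transcript lengths RSEM assigned, the *Gbp4* level of pair 2 was 4.13 in WT and 3.93 in CD1d-KO, so that CD1d-KO had the higher level in 4 of 4 pairs by counts and in 3 of 4 by TPM. On the log2(TPM + 1) scale the difference was 1.14.

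*Gbp9*, the neighbour whose span overlaps that of *Gbp4*, came next. Its normalized count was 119.1, 1337, 2322 and 802.9 in WT replicates 1, 2, 3 and 5 and 682.9, 1425, 4123 and 2708 in the CD1d-KO libraries of the same numbers. Each pair had the higher count in CD1d-KO, by 5.74-fold in pair 1 and 1.07-fold in pair 2 (log2 fold change 1.24, SE 0.34, and 0.89 without replicate 1).

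*Gbp6* had 351.2, 2907, 5940 and 2319 normalized counts in WT replicates 1, 2, 3 and 5 and 1738, 2537, 8793 and 5354 in the CD1d-KO libraries. Pair 2 went the other way, with the lower count in CD1d-KO. The log2 fold change was 0.95 (SE 0.34), 0.53 without replicate 1 and 0.94 when its counts were summed with those of *Gbp10* and *Gm43302*. *Gbp10* on its own had a normalized count between 5.95 and 38.2 in WT and between 3.41 and 74.7 in CD1d-KO libraries, and with a log2 fold change of 0.72 (SE 0.42, and 0.57 without replicate 1) it had the widest error of the 9.

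*Gbp8* did not have enough counts for a test. Its expected counts were 0, 6.40, 7.44 and 7.27 in WT replicates 1, 2, 3 and 5 and 11.5, 4.08, 98.6 and 27.5 in CD1d-KO replicates 1, 2, 3 and 5. Only CD1d-KO replicates 3 and 5 were well above the rest, and these are the libraries in which *Gbp4* was highest as well. *Gbp11*, a further family gene of chromosome 5 that is not a member, had a normalized count of 22.2 ± 20.3 in WT and 68.5 ± 67.4 in CD1d-KO (SD, n = 4 each).

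Of the chromosome 3 genes, *Gbp5* had the largest difference. GBP5 is a prenylated member that promotes assembly of the NLRP3 inflammasome, and its normalized count was 339.3, 1933, 4239 and 1877 in WT replicates 1, 2, 3 and 5 and 1277, 2601, 6225 and 3991 in the CD1d-KO libraries. It was higher in CD1d-KO in 4 of 4 pairs, by 1.35-fold to 3.76-fold, and pair 2 showed the smallest ratio (log2 fold change 0.98, SE 0.22, and 0.69 without replicate 1).

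*Gbp3* had 987.4, 3283, 5381 and 3173 normalized counts in WT replicates 1, 2, 3 and 5 and 2189, 3675, 8334 and 5908 in the CD1d-KO libraries. Its ratios were between 1.12-fold in pair 2 and 2.22-fold in pair 1, and of the 9 members it had the smallest error (log2 fold change 0.71, SE 0.15, and 0.56 without replicate 1). The normalized count of the abundant *Gbp2* was 2493, 8556, 12664 and 9489 in WT replicates 1, 2, 3 and 5 and 6065, 8620, 19089 and 16235 in CD1d-KO. The ratio of *Gbp2* was 1.01-fold in pair 2 and 2.43-fold in pair 1 (log2 fold change 0.66, SE 0.18, and 0.46 without replicate 1).

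*Gbp7*, which protects against intracellular bacteria and is linked to the assembly of the NADPH oxidase on their vacuoles, had the smallest difference. Its normalized count was 382.5, 2134, 2907 and 1508 in WT and 1028, 2177, 3252 and 2562 in CD1d-KO replicates 1, 2, 3 and 5. Pairs 2 and 3 differed by 1.02-fold and 1.12-fold, and the log2 fold change was 0.58 (SE 0.21) and 0.32 without replicate 1.

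*Gbp2b*, known as Gbp1 in older work, followed another pattern. Its normalized count was 119.1, 131.3, 165.8 and 310.9 in WT and 269.5, 105.6, 415.3 and 501.0 in CD1d-KO replicates 1, 2, 3 and 5. Its largest ratio was 2.5-fold, in pair 3, where the other chromosome 3 members had ratios from 1.12 to 1.55, and pair 2 went the other way at 0.805-fold (log2 fold change 0.77, SE 0.24, and 0.63 without replicate 1).

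**Figure D4:**
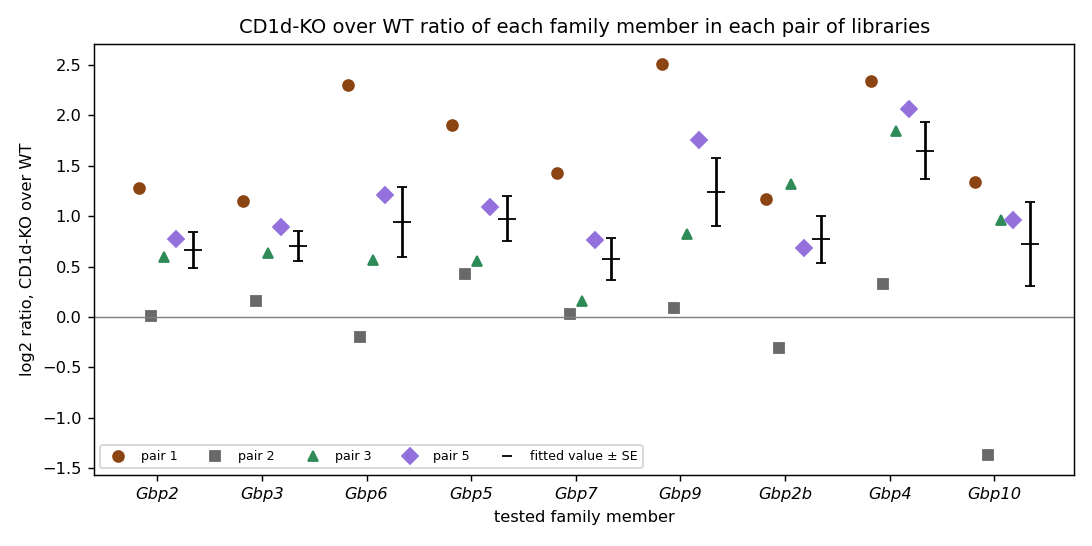
Log2 ratio of the CD1d-KO over the WT normalized count in pairs 1, 2, 3 and 5 for each tested member (y axis, log2), with the fitted log2 fold change and its SE as a black bar. The ratios of pair 1 are the highest for all of the 9 members but *Gbp2b* and those of pair 2 the lowest for all 9.

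The 4 pairs differed in the size of their ratios. The median log2 ratio over the 9 tested members was 1.43 in pair 1, 0.03 in pair 2, 0.63 in pair 3 and 0.96 in pair 5. The CD1d-KO library had the higher level of all 9 in pairs 1, 3 and 5 and of 6 of 9 in pair 2. The pair with the largest ratios holds the library labelled CD1d-KO replicate 1 that kept its *Cd1d1* counts, and also WT replicate 1, in which the family was lowest. Both were also the deepest libraries, and whether pair 1 was prepared apart from the others was not tested. Without replicate 1 the median log2 fold change of the members was 0.57, and without replicate 2 it was 1.08. *Gbp2*, *Gbp3*, *Gbp4*, *Gbp5*, *Gbp7* and *Gbp9*, 6 of the 9 tested members, were higher by counts in 4 of 4 pairs, a pattern found in 10.6% of all tested genes (by TPM, 5 of the 9, without *Gbp4*).

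A call needed a fold change above 1.5 together with an adjusted p-value under 0.01. At these thresholds the quasi-likelihood test of edgeR called 0 of the 9 tested members and 0.0383% of all tested genes, and 8 of the 9 members had an unadjusted p under 0.05 with the higher level in CD1d-KO, as had 7.35% of all tested genes. DESeq2 called 2 members, *Gbp3* and *Gbp4*, of the 8 to which it gave an adjusted p-value, where 0.683% of its genes were called as higher. Without replicate 1 DESeq2 called 1 member, *Gbp5*, and 0.503% of its genes as higher, and without replicate 2 edgeR called 1, *Gbp4*, and 0.151% of the tested genes as higher. Since the same comparison chose the family, nothing is read from these counts.

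The other genes of the pathway were taken from 7 lists with 110 tested genes. Of these edgeR called 0, where it called 0.0383% of all tested genes. DESeq2 called 4 as higher in CD1d-KO, where 0.683% of its genes were called as higher. At an unadjusted p under 0.05 in edgeR, 63 were higher and 2 lower in CD1d-KO. Of all 13040 tested genes 958 were higher and 653 lower at that level, which is the background for the count of each list. *Ifng* itself had at most 2 expected counts in any library. Of the 15 genes for the IFN-γ receptor and its signalling, 5 were higher and 1 lower at that level (median log2 fold change 0.12). The receptor chain *Ifngr1* stood at 1217 ± 225 normalized counts (WT) and 1112 ± 243 (CD1d-KO), and *Ifngr2* had 2233 ± 157 and 2179 ± 53.2 (SD, n = 4 each), with log2 fold changes of -0.14 (SE 0.07, lower in CD1d-KO in 4 of 4 pairs) and -0.03 (SE 0.07). Without pair 1 these were -0.17 and -0.05.

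Downstream of the receptor, *Jak2* had a normalized count of 2159 ± 905 in WT and 2875 ± 1024 in CD1d-KO (SD, n = 4 each) and was higher in 4 of 4 pairs (log2 fold change 0.44, SE 0.08, adjusted p = 0.0827 from edgeR and 0.00119 from DESeq2, with a fold change under 1.5), while *Jak1* had a log2 fold change of 0.12 (SE 0.07). Without pair 1 they had log2 fold changes of 0.43 and 0.12. *Irf1*, the transcription factor that binds the ISRE, had a log2 fold change of 0.41 (SE 0.12, adjusted p = 0.233 from edgeR), and *Stat2* of 0.58 (SE 0.17). Without pair 1 *Irf1* was at 0.26 and *Stat2* at 0.39. *Irf8*, a factor of macrophage identity that also acts at interferon elements, was lower in CD1d-KO in 4 of 4 pairs, at a normalized count of 1790 ± 298 in WT and 1342 ± 342 in CD1d-KO (SD, n = 4 each; log2 fold change -0.43, SE 0.08, adjusted p = 0.101 from edgeR and 0.00427 from DESeq2, with a fold change under 1.5), and its log2 fold change was -0.48 without pair 1.

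Immunity-related GTPases, the smaller GTPases that act with GBPs on pathogen vacuoles, were at a median of 0.63 on the log2 scale over 14 genes, of which 9 were higher and 0 lower at an unadjusted p under 0.05. *Irgm2* had a normalized count of 2343 ± 1434 in WT and 3088 ± 1101 in CD1d-KO (SD, n = 4 each; log2 fold change 0.61, SE 0.21, adjusted p = 0.293 from edgeR). *Gm5431*, *Gm12250* and *Gm4951* had log2 fold changes of 0.71, 0.66 and 0.50. With *Irgm2* they were the only 4 of the 14 genes that were higher in CD1d-KO in every pair. When pair 1 was left out, *Irgm2* was at 0.35, *Gm5431* at 0.54, *Gm12250* at 0.31 and *Gm4951* at 0.30, and the 14 genes had a median of 0.35.

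Type I interferon-stimulated genes had a median of 0.73 over 32 genes, 30 of them higher and 0 lower at an unadjusted p under 0.05, and 0.45 without replicate 1. *Ifit3*, *Rsad2*, *Mx1* and *Oasl1*, all antiviral effectors, had log2 fold changes of 1.22, 1.16, 1.12 and 1.04 over all pairs and of 0.79, 0.78, 0.84 and 0.79 without pair 1. DESeq2 called *Isg20*. The 20 other IFN-γ-induced genes had a median of 0.53, with 14 higher and 0 lower at that level, and 0.41 without replicate 1. *Nos2*, the inducible nitric oxide synthase, had a normalized count of 74.1 ± 88.6 in WT and 261 ± 297 in CD1d-KO (SD, n = 4 each; log2 fold change 1.74, SE 0.27, adjusted p = 0.0501 from edgeR), and the chemokine gene *Cxcl10* had a log2 fold change of 1.66 (SE 0.43, adjusted p = 0.181 from edgeR). Without pair 1 *Nos2* was at 1.80 and *Cxcl10* at 1.32. DESeq2 called *Nos2*, *Tap1* and *Cd274* in this list. *Isg20*, *Tap1* and *Cd274* are named because they were called and were chosen after their values were seen.

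GBPs feed into inflammasomes, and the 12 inflammasome and pyroptosis genes showed a median log2 fold change of 0.16, with 5 higher and 0 lower at an unadjusted p under 0.05. *Casp4*, which encodes caspase-11, had a normalized count of 818 ± 483 in WT and 1086 ± 561 in CD1d-KO (SD, n = 4 each; log2 fold change 0.49, SE 0.14, adjusted p = 0.212 from edgeR), and *Mefv*, which encodes pyrin, had a log2 fold change of 0.65 (SE 0.15, adjusted p = 0.144 from edgeR). *Il18* had a log2 fold change of 0.50 (SE 0.20), and these 3 genes were the only ones of the 12 that were higher in CD1d-KO in every pair. Without pair 1 *Casp4* was at 0.33, *Mefv* at 0.68 and *Il18* at 0.42. The 11 genes of ATG8 conjugation, which direct GBPs to vacuoles, had a median of -0.03, with 0 higher and 1 lower, *Gabarapl1* (log2 fold change -0.25, SE 0.09, and -0.24 without pair 1). The 6 prenylation genes, whose products modify the CaaX box of *Gbp2*, *Gbp2b* and *Gbp5*, had a median of -0.02 and 0 of 6 reached an unadjusted p under 0.05. Without pair 1 the medians were 0.12 for the signalling genes, 0.15 for the inflammasome genes, -0.08 for ATG8 conjugation and -0.04 for prenylation.

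The medians of the interferon lists also varied from pair to pair. In pair 3 the median log2 ratio was 0.63 for the 9 GBPs, 0.06 for the immunity-related GTPases, 0.18 for the type I interferon-stimulated genes and 0.39 for the other IFN-γ-induced genes. In pair 1 the same lists stood at 1.43, 1.4, 1.61 and 0.97, and in pair 5 at 0.96, 1.11, 1.05 and 0.71. All 4 lists lay between -0.03 and 0.19 in pair 2. Whether the lists differ was not tested.

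**Figure D5:**
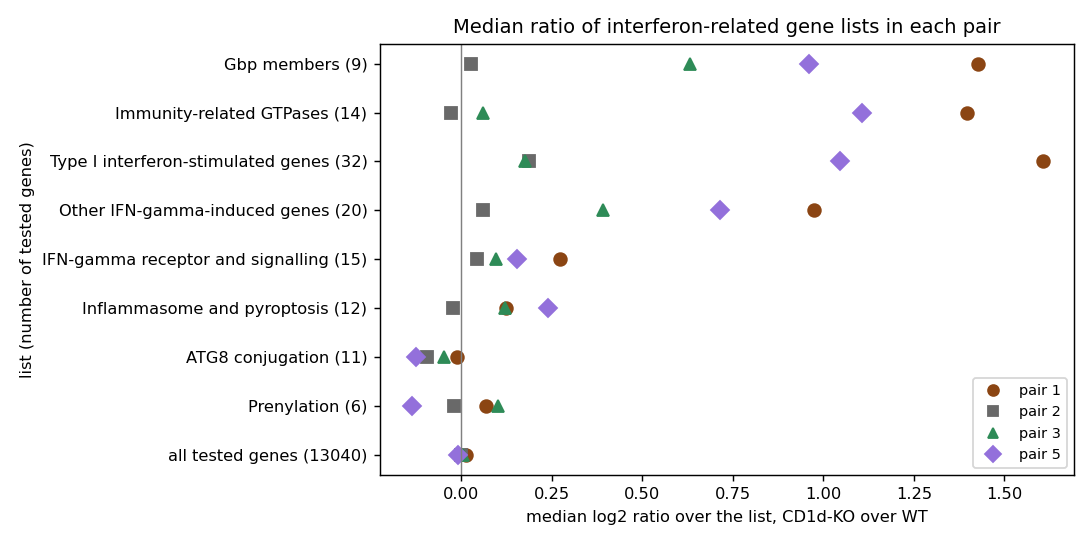
Median log2 ratio of CD1d-KO over WT normalized counts (x axis, log2) in pairs 1, 2, 3 and 5 for the tested members, 7 lists of related genes and all tested genes (y axis, with the number of tested genes). The median of all genes is near 0 in every pair, the interferon lists reach 1.61 in pair 1, and in pair 3 the GBPs stand at 0.63 and the immunity-related GTPases at 0.06.

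The non-members most like the family over the 8 libraries were chosen by Pearson's r between their log2 CPM and the mean standardised log2 CPM of the 9 tested members. The highest r were those of *Gm4841* (0.997, rho 1) and *Tapbpl* (0.996, rho 1), followed by *F830016B08Rik* (0.986), *Prdm4* (0.984), *B2m* (0.982), *Acsl1* (0.981), *Isoc1* (0.981) and *Cfb* (0.981). Without WT replicate 1 and CD1d-KO replicate 3, r was 0.996 for *Gm4841*, 0.99 for *Tapbpl* and between 0.91 and 0.992 for the other 6. *Gm4841* had a normalized count of 316 ± 216 in WT and 546 ± 341 in CD1d-KO, and *Tapbpl* 738 ± 233 and 954 ± 276 (SD, n = 4 each). Both were among the 8 each time a pair of libraries was left out, whereas *B2m*, *Isoc1* and *Cfb* were not when any pair was left out.

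Markers of other cells were read beside these values. Markers of T and NK cells, which make IFN-γ, summed to between 26.7 and 45.0 normalized counts in WT and between 19.3 and 30.6 in CD1d-KO libraries over 10 genes, 4 of them with at most 3 counts in every library. B cell markers summed to between 3063 and 8389 in WT and between 1945 and 13950 in CD1d-KO. Markers of small peritoneal macrophages and dendritic cells summed to between 664.5 and 1176 in WT and between 595.3 and 1087 in CD1d-KO, those of mast cells to at most 208.3, those of eosinophils to at most 82.2 and those of mesothelial cells to at most 5.46 in any library. The 5 neutrophil markers summed to between 2559 and 4708 in WT and between 4069 and 6151 in CD1d-KO, and their log2 sum moved with the mean level of the GBPs over the 8 libraries (Pearson's r 0.83, a description over libraries that share 1 normalization). Of these markers 2 had enough counts for a test, *Csf3r* and *S100a8*, and both were higher in CD1d-KO in 4 of 4 pairs (median log2 fold change 0.60). Most of that sum was *Csf3r*, which macrophages also express, and *S100a8* had a normalized count between 44.2 and 51.2 in WT and between 80.5 and 89.5 in CD1d-KO, while *S100a9*, *Ly6g* and *Retnlg* had at most 3 counts in every library. For the other lists the same r with the mean level of the GBPs was between -0.40 (large peritoneal macrophages) and 0.61. The value of 0.61 was that of the mesothelial markers, which had at most 5.46 summed counts. Markers of small peritoneal macrophages and dendritic cells had an r of 0.55. The part of other cells in the differences of the family was not tested.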

How the data were processed

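Single-end reads of polyadenylated RNA were trimmed by the authors with Cutadapt, aligned to GRCm38 with STAR 2.5.2a and assigned to Ensembl genes with RSEM 1.3.0, per the labels and the study's methods; the strand setting is not given in the sources used here. The deposited expected counts are estimates that divide a read among the genes it matches, and they are not normalized. The deposited TPM and FPKM values are scaled by the authors with RSEM for depth and effective transcript length, and the deposited gene lengths were not tested.

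Expected counts were rounded, normalized by TMM and tested with the quasi-likelihood test of edgeR 4.0.16 (R 4.3.3) on the 13040 genes that passed filterByExpr. The model held replicate number and genotype, the covariates of the study, and p-values had Benjamini-Hochberg adjustment. The study itself used DESeq2 for its test and not edgeR. Calls needed a fold change above 1.5 and an adjusted p under 0.01. DESeq2 1.42.0 and limma 3.58.1 were alternatives. Ratios within pairs used a pseudocount of 0.5, and log2 CPM a prior count of 2. Scripts were tested on simulated counts.

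Samples of the same number deviated together from their group means (correlations 0.487, 0.388, 0.505 and 0.207 for numbers 1, 2, 3 and 5), with WT replicate 5 as close to CD1d-KO replicate 1 (0.22) as to its own number. The pairing comes from these values and from the study's covariate, since the labels do not say what a number marks. Counts differed beyond sampling noise in each of the 28 pairings of libraries (chi-square per degree of freedom at least 13.2).

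Gene positions and proteins came from GENCODE M21 (GRCm38), which held 48435 of the 48795 gene identifiers, and promoters from RefSeq (GRCm38.p6). The members, the lists of related genes and the tests were chosen with earlier results of these data known. Named genes were the members, *Cd1d1*, *Gbp11* and 8 genes of IFN-γ signalling (1 of which is not reported here), up to 4 genes per list with the largest log2 fold change among those with a mean of at least 50 normalized counts and 1 direction in all pairs, and the 8 non-members most like the family. Counting error is small for the abundant members, and *Gbp8* and *Gbp10* are limited by depth.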

Additional observations from a re-analysis of the deposited data

Results flagged for a closer look

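In a group of 4 libraries, a value was picked out when its gap to the nearest other library, divided by the range of the group, was above Dixon's critical value. Of 43 groups tested (members, related genes and *Cd1d1*), 2 were picked out, and chance does so for about 1 in 20 groups. *Cd1d1* in the library labelled CD1d-KO replicate 1 had 60.2 normalized counts, where the other 3 CD1d-KO libraries had at most 1.14. *Gm43802*, the processed pseudogene that shares 10% of the 75-base stretches of *Gbp7*, had 24.6 normalized counts in WT replicate 1, below the other 3 WT libraries, and *Gbp7* was also lowest there, at 382.5.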

How the results depend on the processing

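The fitted difference of each tested member kept its direction under every alternative run (142 values, all within the spread between replicates), from 1.14 to 2.11 for *Gbp4* and from 0.29 to 1.11 for *Gbp10*. Without the replicate block, that is without the pairing, 3 genes were called in place of 5, and the median of the members was 0.75 in place of 0.77. Among the members 0 were called without the replicate block.

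Counts of calls depended on the test. Over all genes, limma-trend on log2(TPM + 1) or log2(TPM + 0.1) called 3, DESeq2 106, edgeR without a filter on counts 236, and edgeR at an adjusted p under 0.05 called 48. Leaving out a replicate gave 3 to 22 genes. Of the members, DESeq2 called 2 and edgeR without the filter 8, and leaving out a replicate gave 0 to 1. Of the related genes, these gave 4 and 36, and leaving out a replicate gave 0 to 1. DESeq2 without the replicate block and without replicate 1, both chosen after seeing the data, called 20 and 44 genes, and without replicate 1 it called 1 member. The cause was not tested. In the CD1d-KO libraries 8 of 10 members kept their place in the order of levels. Of the 8 genes most like the family, 2 to 4 remained when a pair of libraries was left out. The WT levels of several members span over 10-fold among 4 mice, which limits precision for the abundant members, and *Gbp8* and *Gbp10* also have few counts.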
